A study of Mus musculus with 6 samples.

Results

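The cytosolic ribosomal protein genes encode the proteins of the large (Rpl) and small (Rps) ribosomal subunits. They were picked by symbol from the table of gene counts: Rpl or Rps with a number and an optional suffix of a, x, l, y or 1, plus Rplp0, Rplp1, Rplp2 and Rpsa, leaving out pseudogenes with a -ps symbol, Rps6k and Gm genes. The rule took 86 of 37991 rows, 52 of the large and 34 of the small subunit, on 19 chromosomes. The reference annotation calls 83 of them protein coding and 3, Rpl6l, Rps4l and Rps12l1, pseudogenes.

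RNA came from regulatory T cells (Treg), a CD4+ T cell type that is defined by the transcription factor Foxp3 and holds other immune cells in check. The cells were isolated from mouse spleen and sorted for YFP. Poly(A) RNA-seq libraries were labelled wild type and KAP1 sufficient in 3 cases and KAP1 deficient in 3. KAP1, encoded by Trim28, is a co-repressor recruited to DNA by KRAB zinc finger proteins. The strain is given as C57BL/6 for all sufficient libraries and for deficient replicate 1, as C57BL/7 for deficient replicate 2 and as C57BL/8 for deficient replicate 3. The labels name no age, no driver of the YFP or of the deletion, and no animal for each replicate. The p-values therefore reflect the spread among these libraries alone, which may be technical.

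A ribosome holds 1 copy of most of its proteins, so the mRNAs of a large set of genes are needed in similar molar amounts. Most of these mRNAs begin with a terminal oligopyrimidine (TOP) tract, a cytosine followed by a run of pyrimidines, through which mTORC1 signalling and LARP1 control their translation. The genes are also known for a large number of processed pseudogenes, intronless copies of the spliced mRNA inserted elsewhere in the genome. T cells raise ribosome production when they are activated and start to divide.

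Totals were 9954344 to 10994745 counts per library. Levels are counts scaled to the library total (CPM), on which 3 counts, the most that a count of 0 allows for, equal 0.273 to 0.301 CPM. Trim28 went against the label in 2 libraries: sufficient replicates 1, 2 and 3 had 244, 244 and 21.2 CPM, and deficient replicates 1, 2 and 3 had 23.0, 18.6 and 231 CPM. Directions are therefore given for the 6 libraries as labelled and again for 4 libraries, replicates 1 and 2 of each group. The 7 Treg markers summed to 4283 to 4549 CPM. The 8 B cell markers with a row summed to 544 to 697 CPM, nearly all from Ighm, while Ms4a1 and Pax5 had 0 or 1 count in every library. The 7 erythroid and 9 myeloid markers summed to at most 0.182 and 8.44 CPM, and the 4 NK cell markers to 2.36 to 10.9 CPM. In bulk RNA, fewer cells of a type and less RNA per cell cannot be told apart.

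The members did not share a common level in the deposited counts. Rpl8, a protein of the large subunit core, Rplp1 of the stalk, Rpl4 at the exit tunnel and Rps15 on the head of the small subunit were among the highest per length of exon, with 1184, 1183, 1005 and 906 CPM per kb. Rps23, a protein of the decoding centre that every ribosome carries, had 1.37 CPM per kb and Rpl35, beside the exit tunnel, 2.72 CPM per kb. The other members among the 5 lowest with a count were Rpl6l, Rpl39l and Rps4l, at 0.126, 1.70 and 2.97 CPM per kb. Rpl3l, Rpl10l and Rps12l1 had no count in any library.

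The level was lower in members whose coding sequence also occurs in another gene. Each coding sequence of the reference annotation was divided into every stretch of 50 bases, and the share of these 50-mers found in a transcript of another gene was counted. Rpl8 shared 8.73% and Rpl4 20.3%, whereas Rps23 shared all of them. The 14 coding members that shared under 50% had a median of 339 CPM per kb, the 40 that shared 50% to under 100% had 70.4 and the 27 that shared all had 9.93. Over the 81 coding members Spearman's rho of level per length with the shared percentage was -0.68, and -0.68 with stretches of 100 bases. These points share libraries and depth, and the read length was not available for setting the length of a stretch.

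Copies were mostly pseudogenes. Coding members shared a 50-mer with a median of 8 and at most 120 annotated pseudogenes, and 599 rows of the count table that are not members are such pseudogenes. These 599 rows held 48828 to 58616 counts per library against 137996 to 162485 for all 86 members. For 29 coding members the copies matched to that gene alone held more CPM than the gene itself. The stretches below are shown because they hold bases by which a read from the gene can differ from one of its copy. For each gene the transcript with the longest coding sequence was used, so a marked base may belong to that transcript alone. Differences over the whole coding sequence were not counted for Rps10 and Rpl14, which shared 47.2% and 77.7% of their 50-mers with the copy shown. Each runs 5′ to 3′ along the coding strand, from GENCODE M21 on GRCm38, and capitals mark the bases that differ between gene and copy.
Rpl37: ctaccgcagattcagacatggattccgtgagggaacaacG
Rpl37rt: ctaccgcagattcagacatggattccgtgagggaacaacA
Rps26: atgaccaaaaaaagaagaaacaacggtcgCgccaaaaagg
Rps26-ps1: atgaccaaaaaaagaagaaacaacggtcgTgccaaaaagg
Rps10: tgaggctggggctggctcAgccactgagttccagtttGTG
Rps10-ps1: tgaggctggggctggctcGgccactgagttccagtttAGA
Rpl14: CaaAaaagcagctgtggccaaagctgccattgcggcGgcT
Rpl14-ps1: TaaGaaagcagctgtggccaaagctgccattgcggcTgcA
Rps23: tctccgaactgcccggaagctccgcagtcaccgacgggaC
Rps23-ps2: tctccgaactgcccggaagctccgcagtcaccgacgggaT

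The gene and its copy differed at 1 of 291 coding bases for Rpl37 and Rpl37rt, at 2 of 345 for Rps26 and Rps26-ps1, and at 2 of 429 for Rps23 and Rps23-ps2. On average Rps10 had 20.8 CPM and Rps10-ps1 had 233, Rpl14 had 140.3 and Rpl14-ps1 had 330.3, and Rpl37 had 43.8 and Rpl37rt had 129.5. The pair Rps26 and Rps26-ps1 had the opposite order, 174 and 53.8 CPM. Rps23 and Rps23-ps2, the closest over the whole coding sequence among the copies compared, were both low, at 1.28 and 0.0794 CPM. Not every copy of Rps23 was compared. Changes of members with copies are therefore given below alone and with their copies.

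The authors' deposited comparison table gave most members a far higher mean level than the deposited counts. Of 82 members with at least 10 counts on average and a level in both, 69 stood more than 2 times higher in the authors' deposited table, 84.1% against 4.94% of 10412 genes. The median ratio was 11.2 for members and 0.987 for all genes. Rps6, the small subunit protein phosphorylated by S6 kinase, averaged 28.5 deposited counts and 17229 normalized counts in the authors' deposited table, and Rps23 averaged 13.2 and 6321. Rpl8 was near equal in both, at 12698 counts against 13250 in the authors' deposited table. Summed over these 82 members, the authors' deposited table held 819648 and the counts 145020.

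Members that share few 50-mers had similar values in both tables, and members that share all did not. The median ratio of the authors' deposited level to the count was 1.69 for 14 coding members that share under 50% and 68.4 for 27 that share all. In the authors' deposited table the level per length showed no such trend with shared sequence (rho = 0.10 over 82 members, against -0.63 for the same members in the counts). Exceptions in the other direction, named after their values were seen, were Rpl26, listed at 0 in the authors' deposited table with 985 counts on average, Rpl30 at 5.71 with 1463 counts, Rpl34 at 13.1 with 2271 and Rps27 at 19.0 with 21.3. For Rpl14-ps1 the authors' deposited level was 5.70 against 3393 counts. Neither the labels nor the headers say how the counting behind the 2 tables differed.

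**Figure D1:**
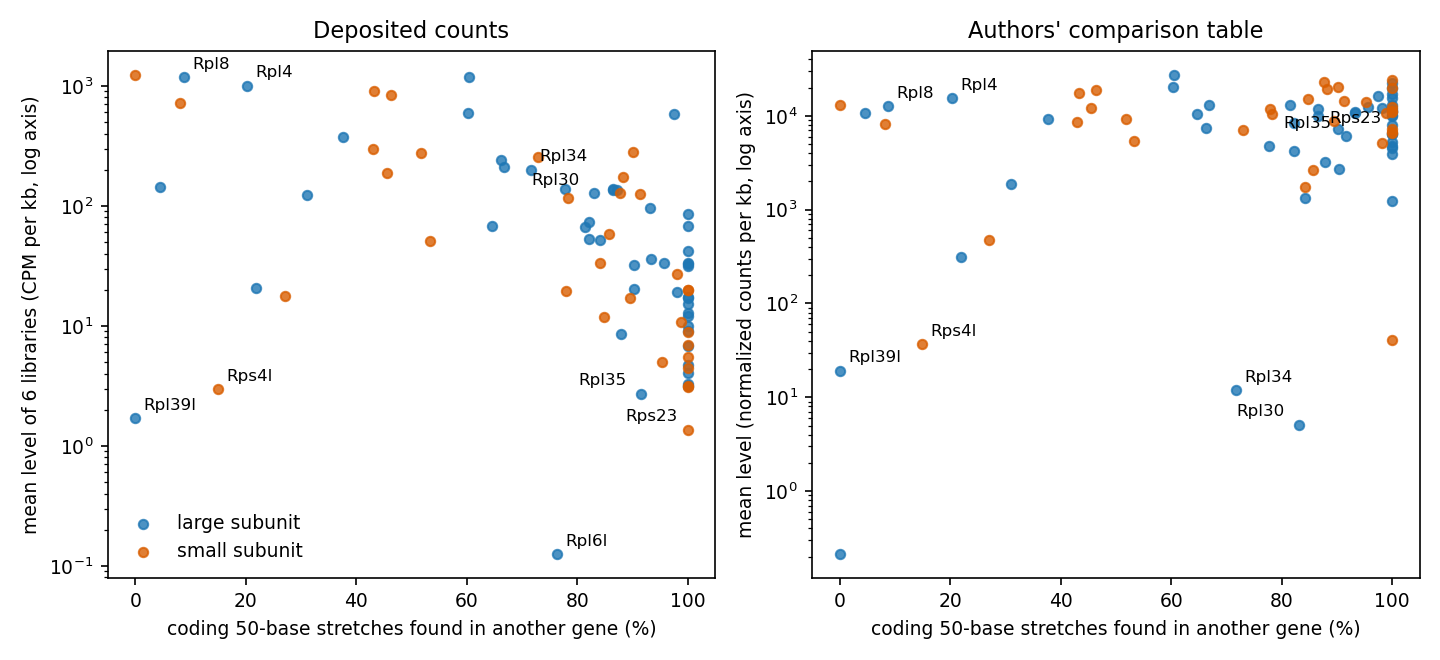
Mean level per kb of exon of each ribosomal protein gene with a level above 0 (log axes) against the percentage of its coding 50-base stretches found in another gene, in the deposited counts (left, CPM) and in the authors' comparison table (right, normalized counts). In the counts Rps23 lies near 1.37 CPM per kb with all stretches shared and Rpl8 near 1184 with 8.73% shared; in the authors' table most genes lie at a similar height at any shared percentage.

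As a share of all counts, the members took 1.38%, 1.46% and 1.34% in sufficient replicates 1, 2 and 3 and 1.39%, 1.43% and 1.48% in deficient replicates 1, 2 and 3. The groups overlapped, with means of 1.39% ± 0.0633 and 1.43% ± 0.0462 (SD, n = 3 each, two-sided exact permutation p = 0.4, where 0.1 is the smallest that 3 against 3 allows). Without both libraries in which Trim28 goes against the label the difference, 0.0377 percentage points higher in deficient, turned to -0.0125. Small subunit members alone took 0.576% to 0.608% in sufficient and 0.610% to 0.654% in deficient libraries, with no overlap (exact permutation p = 0.1). Large subunit members took 0.802% and 0.801% on average.

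With all 6 libraries as labelled, no member passed the test. Of 12158 genes tested with edgeR's quasi-likelihood test, 2 were called at an adjusted p under 0.05, or 0.0165%, and 0 of the 82 members tested were among them. At an unadjusted p under 0.05 there were 27 members, 32.9%, against 7.76% of all genes, and 23 of the 27 were higher in deficient libraries, 28.0% against 4.26% of all genes. The median log2 fold change of members, deficient over sufficient, was 0.13, against 0.00 for all genes, and 58 members lay above 0 and 24 below. DESeq2 called 1 member and edgeR without a filter on low counts called 1, in both cases Rps10. Without the library labelled sufficient replicate 3, edgeR called 27 members, 19 higher and 8 lower in deficient. Leaving out any other single library gave 0. The share of all genes called in those fits is not given here, so these counts do not set members apart from other genes.

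Rps10, a small subunit protein at the mRNA entry channel, had the smallest p by label. Its level was 16.6, 14.4 and 17.0 CPM in sufficient and 26.0, 24.4 and 26.1 CPM in deficient libraries. All 3 deficient libraries lay above all 3 sufficient ones, including the pair in which Trim28 goes against the label. Its change was 0.67 ± 0.10 (SE) on the log2 scale with 6 libraries, at an edgeR adjusted p of 0.219, and 0.70 ± 0.12 with 4 libraries, at an edgeR adjusted p of 0.000903. Its copy Rps10-ps1 had 181, 187 and 249 CPM in sufficient and 250.3, 271 and 258 CPM in deficient libraries, so there sufficient replicate 3 lay beside the deficient libraries.

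The next smallest p by label belonged to Rps3a1, Rpl35a and Rps15a. Rps3a1, a small subunit protein that contacts initiation factor eIF3, had 130.4, 149 and 164 CPM in sufficient and 184, 196 and 202 CPM in deficient libraries. Rpl35a, a large subunit protein mutated in some cases of Diamond-Blackfan anaemia, had 68.8, 68.8 and 60.4 CPM in sufficient and 54.9, 49.6 and 53.8 CPM in deficient libraries. Rps15a had 133, 159 and 179.6 CPM against 201, 206 and 211 CPM. In each of these genes the groups did not overlap and sufficient replicate 3 was the sufficient library nearest to the deficient ones, and the edgeR adjusted p was 0.632 with 6 libraries.

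Counting only whether groups overlapped, 27 members, 32.9% of those tested, had all 3 libraries labelled sufficient below all 3 labelled deficient, against 6.73% of all genes. In the opposite direction there were 2, Rpl35a and Rps28, or 2.44% against 6.05% of all genes. The 27 included Rps14, Rps20, Rps3a1, Rpl39 and Rpl37. By the level of Trim28, with sufficient replicates 1 and 2 and deficient replicate 3 as the high and the other libraries as the low ones, the order was different. The high libraries lay below the low ones for 2 members, Rpl17 and Rpl26 (2.44% against 11.9% of all genes), and above them for 15 (18.3% against 14.5%), among them Rpl8, Rpl4, Rplp0, Rplp1, Rplp2, Rpl23, Rpl41, Rps26 and Rps4x. Trim28 is measured in the same libraries, so these are descriptions with no test.

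**Figure D2:**
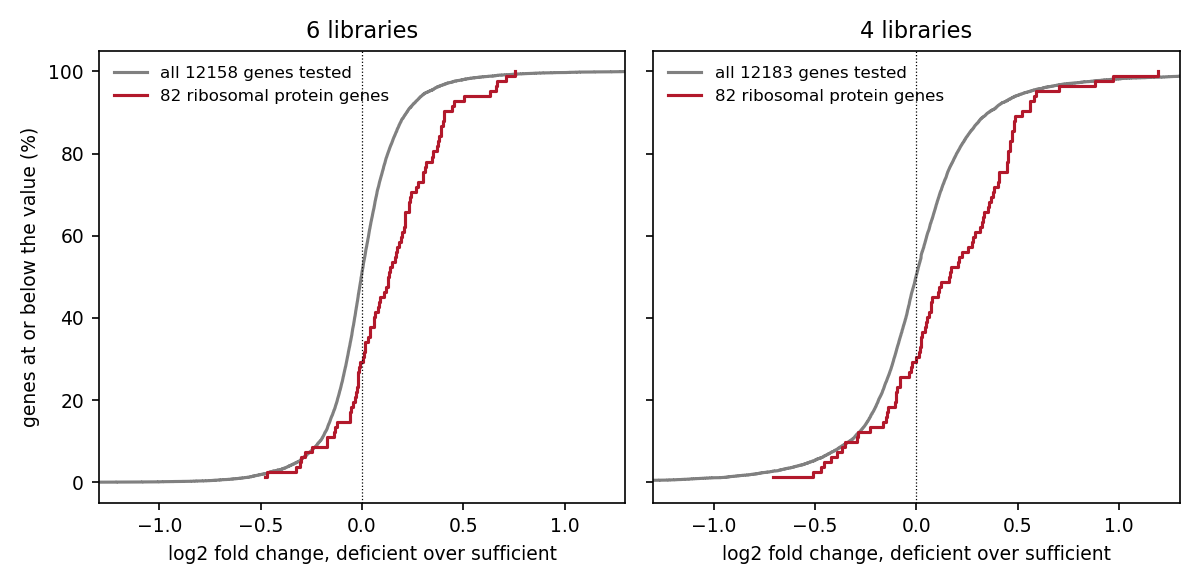
Cumulative share of genes (%) against log2 fold change, deficient over sufficient, for all genes tested (grey) and for the 82 ribosomal protein genes tested (red), with 6 libraries (left) and with replicates 1 and 2 of each group (right). The red curve lies to the right of the grey one at most values, with medians of 0.13 and 0.16 against 0.00 for all genes in both panels.

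In the 4 libraries whose Trim28 level fits the label, ribosomal protein genes changed in both directions. Of 82 members tested, 21 rose and 8 fell in deficient libraries at an edgeR adjusted p under 0.05, and 53 did not pass. The share called was 35.4% against 17.4% of 12183 genes, with 25.6% against 9.96% higher and 9.76% against 7.39% lower. The median log2 fold change was 0.16 against 0.00 for all genes. Of 49 large subunit members 14 rose and 6 fell (median 0.11), and of 33 small subunit members 7 rose and 2 fell (median 0.26). With a limit of 1.2-fold in the test itself, 10 members rose and 4 fell, and the share of all genes under that limit is not given here.

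Rpl37, a large subunit zinc-binding protein, had the largest change. It had 24.3 and 23.6 CPM in sufficient replicates 1 and 2 and 53.7 and 55.7 CPM in deficient replicates 1 and 2, which is 1.19 ± 0.08 (SE) on the log2 scale with an edgeR adjusted p of 1.11e-07. The libraries left out both lay with the deficient ones, at 51.7 CPM for sufficient replicate 3 and 54.0 CPM for deficient replicate 3. Rpl37rt, the copy that differs at 1 coding base, fell: it had 139.9 and 152 CPM in sufficient and 121 and 124 CPM in deficient libraries (log2 fold change -0.25 ± 0.06, edgeR adjusted p = 0.00846). With the copies added to the gene, the log2 fold change was 0.07 (edgeR adjusted p = 0.452).

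The other large subunit members that rose were Rpl39, Rpl19, Rpl11, Rpl22l1, Rpl26, Rpl13, Rpl7a, Rpl15, Rpl18, Rpl37a, Rpl27a, Rpl32 and Rpl14. Rpl39, a short protein of the exit tunnel, had 58.2 and 66.2 CPM in sufficient and 90.7 and 96.2 CPM in deficient replicates 1 and 2 (log2 fold change 0.59 ± 0.07, edgeR adjusted p = 6.92e-05). Rpl11, which with Rpl5 and the 5S rRNA can bind the p53 regulator Mdm2, had 11.88 and 11.98 against 16.9 and 18.2 CPM, and Rpl26, known to bind p53 mRNA, had 79.4 and 77.2 against 106 and 112 CPM. Rpl22l1, the paralog of Rpl22, had 21.0 and 23.3 against 30.9 and 34.1 CPM, whereas Rpl22 itself had 241.6 and 265.4 against 247.5 and 262.8 CPM (log2 fold change 0.02 ± 0.06, edgeR adjusted p = 0.893). The smallest rise was that of Rpl14, 0.17 ± 0.06 on the log2 scale (edgeR adjusted p = 0.0475), and its call was lost with DESeq2 (adjusted p = 0.32), with limma-voom (adjusted p = 0.0591) and without deficient replicate 1, deficient replicate 2 or sufficient replicate 1 (edgeR adjusted p = 0.0909, 0.254 and 0.223). With DESeq2, Rpl11, Rpl15, Rpl27a, Rpl37a and Rpl7a were not called either (adjusted p = 0.138, 0.144, 0.333, 0.228 and 0.0599). Without 1 library, edgeR no longer called Rpl11, Rpl32 and Rpl37a (without deficient replicate 2, adjusted p = 0.0556, 0.0629 and 0.0685), Rpl32 and Rpl37a (without sufficient replicate 1, adjusted p = 0.0862 and 0.0528) or Rpl27a (without deficient replicate 1, deficient replicate 2 or sufficient replicate 2, adjusted p = 0.0632, 0.135 and 0.139).

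Small subunit members that rose were Rps10, Rps15a, Rps21, Rps3a1, Rps20, Rps14 and Rps19. Rps20, on the head of the subunit, had 169 and 181 CPM in sufficient and 233 and 242 CPM in deficient replicates 1 and 2, and the left-out libraries had 225 and 255 CPM (log2 fold change 0.45 ± 0.05, edgeR adjusted p = 3.98e-05). Rps14, the gene of the 5q- syndrome, had 248 and 261 against 336 and 336 CPM (0.41 ± 0.05, edgeR adjusted p = 5.82e-05). Rps19, the gene most often mutated in Diamond-Blackfan anaemia, had 76.3 and 78.3 against 94.4 and 91.7 CPM, or 0.27 ± 0.06 on the log2 scale (edgeR adjusted p = 0.00893), and was not called by DESeq2 (adjusted p = 0.0998).

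The members that fell were Rpl23, Rps26, Rpl41, Rplp2, Rpl35a, Rplp1, Rpl6 and Rps15. Rpl23, a large subunit protein, had 181 and 203 CPM in sufficient and 119 and 115 CPM in deficient replicates 1 and 2 (log2 fold change -0.71 ± 0.06, edgeR adjusted p = 1.65e-06). Rps26, at the mRNA exit channel, had 212 and 225 against 148 and 157 CPM (-0.51 ± 0.05, edgeR adjusted p = 1.23e-05). Rplp1 and Rplp2, the acidic proteins of the stalk that recruits elongation factors, had 658 and 718 against 519.6 and 555 CPM and 302 and 298 against 224 and 222 CPM. Their log2 fold changes were -0.35 ± 0.06 and -0.42 ± 0.05 (edgeR adjusted p = 0.000571 and 3.78e-05). Rplp0, the base of the stalk, was not called. Rpl41, the shortest of the members here, had 116 and 133 against 90.1 and 89.6 CPM. Rps15 was not called by edgeR without sufficient replicate 2 (adjusted p = 0.0707).

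**Figure D3:**
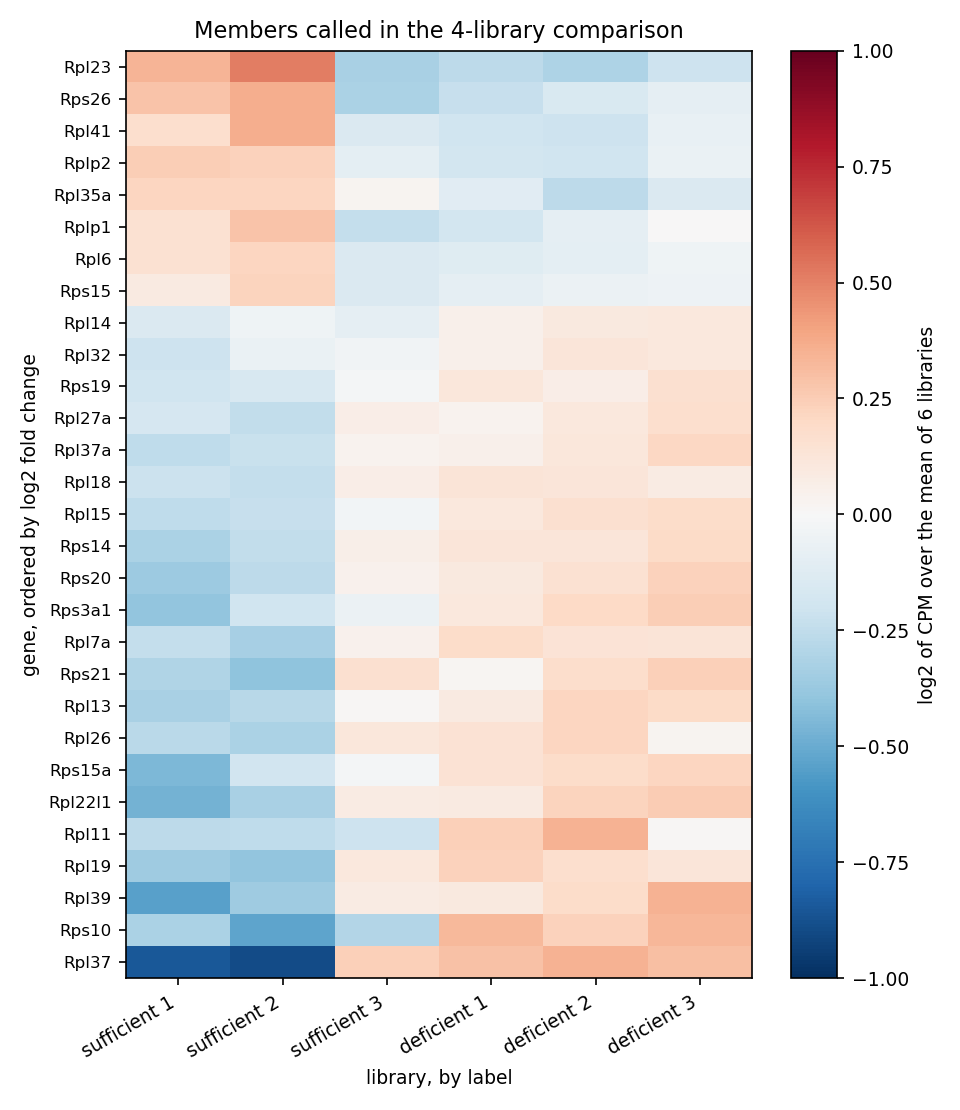
Level of the 29 ribosomal protein genes called with 4 libraries, as log2 of CPM over the mean of all 6 libraries (colour, from -1 to 1), by library (columns, as labelled) and gene (rows, ordered by log2 fold change). Sufficient replicates 1 and 2 stand apart from the other 4 libraries in most rows, and of the 29 genes sufficient replicate 3 lies nearer to deficient 1 and 2 in 24 and deficient replicate 3 in 28.

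The libraries left out of that fit fell together on the deficient side for the members. Of the 29 called members, deficient replicate 3, in which Trim28 was high, lay nearer to the mean of deficient replicates 1 and 2 than to that of sufficient replicates 1 and 2 in 28, the exception being Rpl11. Among all 2114 genes called, this was so for 55.2%. Sufficient replicate 3, in which Trim28 was low, lay nearer to deficient 1 and 2 in 24 of 29, against 91.4% of all called genes. The exceptions were Rps10, Rpl11, Rpl14, Rpl32 and Rpl35a. On a scale where 0 is the mean of sufficient 1 and 2 and 1 that of deficient 1 and 2 (log2 CPM with 0.5 added), the median place of deficient replicate 3 was 1.07 over the called members and 0.57 over all called genes. The median place of sufficient replicate 3 was 0.84 and 0.92.

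Over all 82 members tested, sufficient replicates 1 and 2 were the lowest pair of libraries for 33 (40.2% against 18.2% of all genes) and the highest pair for 11 (13.4% against 17.1%). Mitochondrially encoded genes took 1.922% and 2.097% of counts in sufficient replicates 1 and 2 and 1.33% to 1.61% in the other 4, and the B cell markers summed to 640.1 and 697 CPM against 544 to 606 CPM. The part of either in the members' values was not tested.

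Adding the counts of a member's own copies changed which members were called. Copies were the 598 pseudogene rows that share a 50-mer with 1 coding member only. With them, 26 coding members rose and 11 fell of 81 tested in the 4 libraries, with a median log2 fold change of 0.09. The share of all genes called in that fit is not given here. Without added copies it was 17.4%. Of the 29 members called alone, 23 were still called in the same direction. The other 6 were Rpl37, Rpl19, Rps14, Rpl18, Rpl14 and Rpl6. For Rps14 the log2 fold change went from 0.41 to 0.00 (edgeR adjusted p = 0.974) with its copies, which averaged 228 CPM, and for Rpl18 from 0.36 to 0.03 (edgeR adjusted p = 0.697). Rpl19 and Rpl14 changed sign, to -0.12 and -0.08 (edgeR adjusted p = 0.243 and 0.375). For Rpl6 the value went from -0.29 to -0.03 (edgeR adjusted p = 0.746). Members with next to no counts in copies, such as Rpl23, Rplp1, Rplp2, Rpl41, Rps20 and Rps3a1, had the same log2 fold change to 2 decimals with and without them.

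The copies also moved on their own. Of 82 pseudogene rows tested in the 4 libraries, 27 were higher and 15 lower in deficient libraries, or 32.9% and 18.3% against 9.96% and 7.39% of all genes. With 6 libraries 0 of 82 such rows were called by edgeR and 27 had an unadjusted p under 0.05, again 32.9%, against 7.76% of all genes. Of 82 tested pairs of a member and a copy, both were called in 16, 8 in the same direction and 8 in opposite directions. A member with several copies counts in several pairs. Among members alone, 35.4% were called, and the 16 were not compared with the number that separate calls would give. Gm5805, a copy of Rps14, had 277 and 287 CPM in sufficient and 199 and 199 CPM in deficient replicates 1 and 2, while Rps14 rose. Rps26 and Rps26-ps1 both fell, the copy from 73.0 and 81.1 to 39.98 and 44.80 CPM. Rpl39 and Gm15148 both rose, the copy from 78.9 and 82.5 to 110.1 and 115 CPM.

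**Figure D4:**
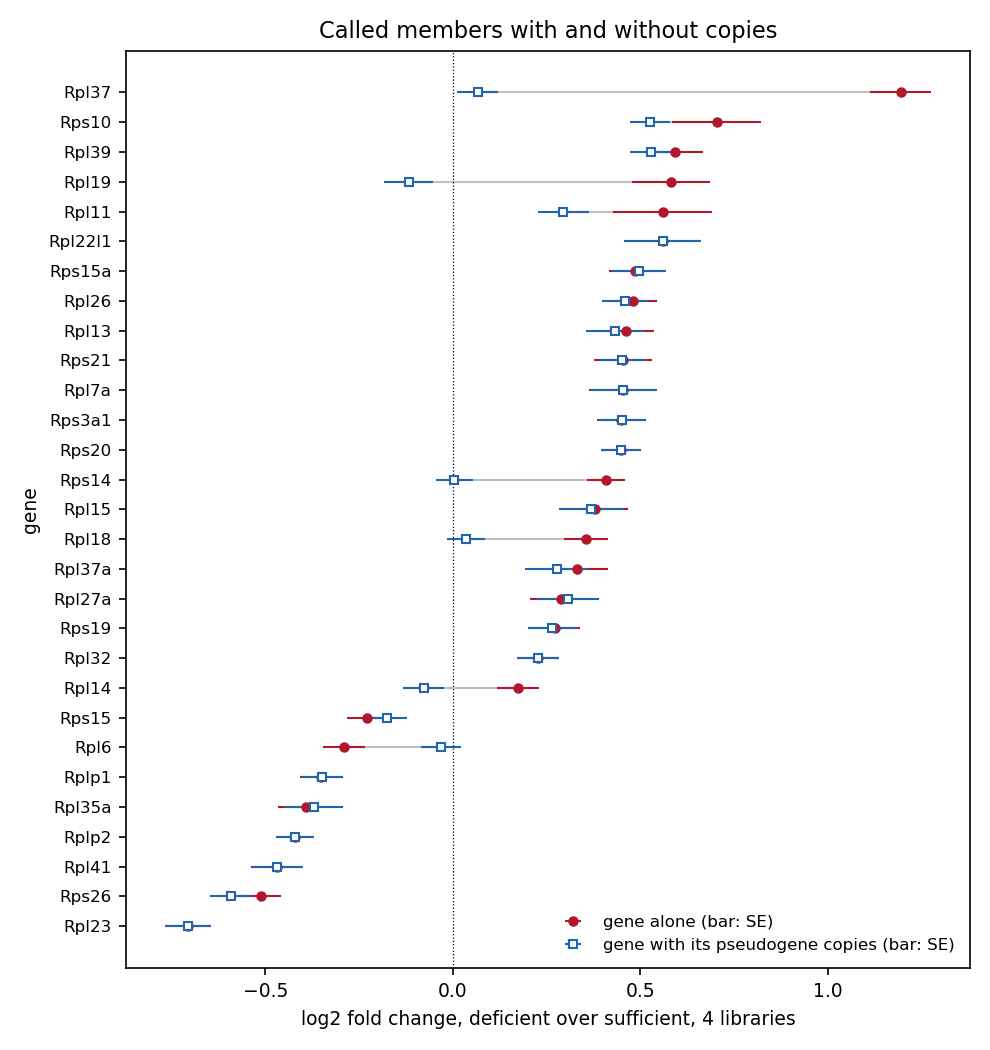
Log2 fold change, deficient over sufficient in 4 libraries, of the 29 called ribosomal protein genes alone (red circles) and with the counts of their pseudogene copies added (blue squares). Bars are SE. Rpl37 moves from 1.19 to 0.07 and Rps14 from 0.41 to 0.00, while Rpl23 stays at -0.71.

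In the authors' deposited table, log2 fold changes of the 82 members listed were small, from -0.17 to 0.40, where positive means higher in sufficient cells: Trim28 stood at 3.11 in the authors' deposited table. Of 80 members with an adjusted p there, 10 had one under 0.05, 12.5% against 6.87% of 12070 genes in the authors' deposited table. All 10 were higher in sufficient cells, among them Rpl27a, Rpl28, Rpl41, Rplp0, Rps12, Rps26 and Rpsa. The largest were Rpl28 at 0.40 ± 0.07 (SE) and Rps26 at 0.30 ± 0.08 in the authors' deposited table. Of the 28 members called here with 4 libraries and listed there, the 8 that fell had the same direction in the authors' deposited table for 7, and the 20 that rose for 6. These counts stand beside a shift of all 82 listed members: 58 lay above 0 and 24 below in the authors' deposited table, where 48.7% of all genes lay above 0. The median of members there was 0.05 toward sufficient, whereas with 4 libraries it was 0.16 toward deficient. Rpl37 had 0.11 ± 0.06 and Rps14 -0.07 ± 0.06 in the authors' deposited table. The authors' deposited table does not say which libraries its groups held, so sufficient there need not mean the libraries labelled so here. It shares its samples with the fits above.

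Rpl3, a protein at the peptidyl transferase centre, varied most between libraries among the 61 members of at least 10 CPM, and did so by replicate number. It had 45.3, 91.4 and 6.31 CPM in sufficient replicates 1, 2 and 3 and 45.2, 77.7 and 7.19 CPM in deficient replicates 1, 2 and 3. Both replicates 3 were lowest and both replicates 2 highest, with a mean of replicates 2 at 12.5 times that of replicates 3, and the groups overlapped. It was the sole member, 1.22% of those tested, with both replicates 2 above both replicates 1 and these above both replicates 3, an order that 0.971% of all genes showed. Of 18 other tested genes within 500 kb of Rpl3 on chromosome 15, 5 showed it, or 27.8%, and 17 of 441 on the whole chromosome. They were Apobec3, Cbx7, Gtpbp1, Atf4 and Gm22077, which overlaps Rpl3 and had at most 12 counts in a library. The mean of replicates 2 was 7.06, 2.19, 1.37 and 1.22 times that of replicates 3 for Apobec3, Cbx7, Gtpbp1 and Atf4, all less than for Rpl3. Apobec3, an antiviral cytidine deaminase 162 kb away, had 232, 384 and 50.9 CPM in sufficient and 204, 331 and 50.4 CPM in deficient replicates 1, 2 and 3. Rpl3-ps1, a copy of Rpl3, had 154, 150.5 and 162 CPM against 179, 174 and 174 CPM and did not follow this order. These neighbours were chosen after their values were seen. In the authors' deposited table Rpl3 averaged 16873 with a log2 fold change of 0.00 ± 0.06, against -0.14 ± 1.23 in the counts with 6 libraries.

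**Figure D5:**
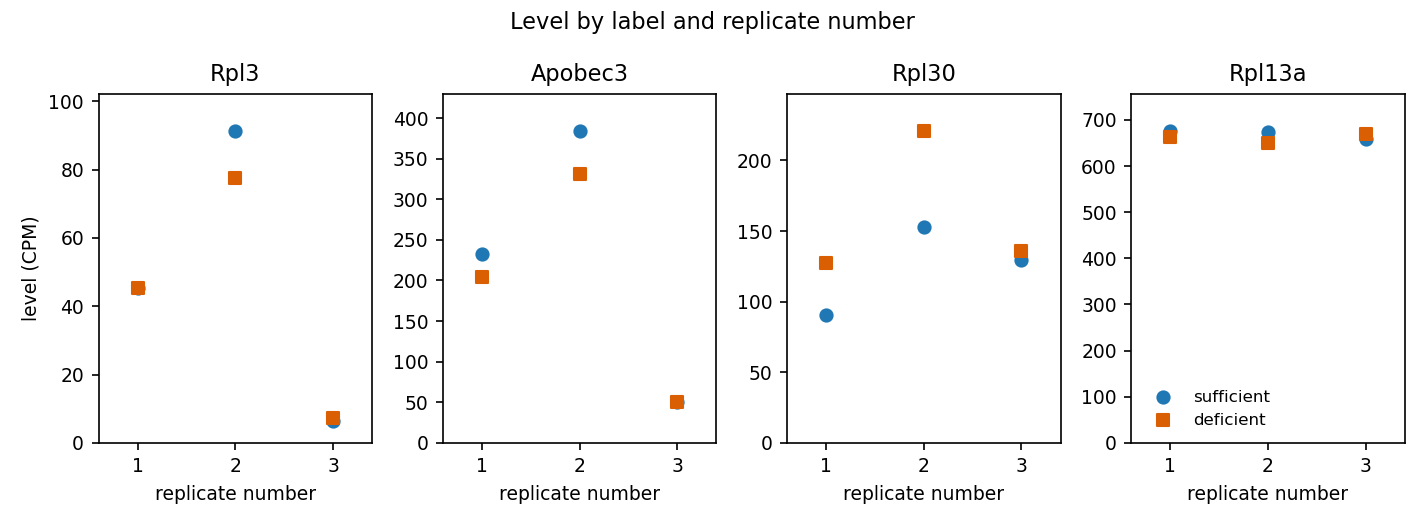
Level (CPM, axes from 0) of Rpl3, its chromosomal neighbour Apobec3, Rpl30 and Rpl13a by replicate number, with circles for libraries labelled sufficient and squares for those labelled deficient. Rpl3 and Apobec3 are lowest in both replicates 3, at 6.31 and 7.19 CPM and at 50.9 and 50.4 CPM, while Rpl13a lies between 649 and 676 CPM throughout.

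Rpl30 and Rpl37, both on chromosome 15, and Rpl23 were the other members with the highest coefficients of variation among 61 with at least 10 CPM. Rpl3 had 77%, Rpl37 35.2%, Rpl30 30.4% and Rpl23 27.3%, against a median of 11.03% for these members and 7.37% for 8944 genes of at least 10 CPM. Rpl30, which regulates its own splicing in yeast, had 90.6, 153 and 129 CPM in sufficient and 127, 221 and 136 CPM in deficient replicates 1, 2 and 3, highest in both replicates 2. Rpl13a, Rpl34 and Rpl7l1 were among the steadiest. Rpl13a, a component of the GAIT complex, ranged from 649 to 676 CPM over all 6 libraries, a coefficient of 1.499%. Rpl34 ranged from 213 to 227 CPM and Rpl7l1 from 62.9 to 67.3 CPM.

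The lowest member with a count that encodes a core protein, Rps23, had 0.693, 0.982 and 1.16 CPM in sufficient and 1.88, 1.41 and 1.55 CPM in deficient libraries, with an edgeR adjusted p of 0.126 with 4 libraries. Rpl35 had 1.47 to 3.46 CPM over all libraries, and Rpl8 and Rpl4 had 1131 to 1362 and 1453 to 1656 CPM, none of them called.

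Several paralogs had no or few counts. Rpl3l, known from heart and skeletal muscle, and Rpl10l, known from testis, had no count, while Rpl3 and Rpl10 had 33.7 and 33.2 CPM per kb. Rpl39l, also known from testis, had 1.70 CPM per kb against 138.7 for Rpl39, and shared no 50-mer with another gene. Rps4l had 2.97 CPM per kb against 284 for the X-linked Rps4x, and Rpl6l 0.126 against 96.3 for Rpl6. Rps12l1 had no count and Rps12 had 11.9 CPM per kb. Rps12l1 shares all and Rpl6l 76.4% of its 50-mers with other genes, and with such sharing Rps23 too had few counts, so a low count there does not show low expression. Other paralogs had higher levels. Rpl22l1 stood at 51.9 CPM per kb against 123.3 for Rpl22, and Rpl7l1 at 20.8 against 212 for Rpl7. Rpl36al, at 17.5 CPM per kb, and Rps27l, a p53 target at 17.7, lay above Rpl36a and Rps27 with 9.93 and 4.49. In the authors' deposited table the order of Rpl36al and Rpl36a was the opposite, at mean levels of 1662 and 3880. Rps27l stayed above Rps27 in the authors' deposited table, at 273 and 19.0. Rpl36al, Rpl36a and Rps27 share all their 50-mers and Rps27l shares 27.1%.

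The start sites were looked at because ribosomal protein genes are known for TOP tracts there. RefSeq start sites on GRCm38.p6 were matched for 63 of the 86 members. The 8 windows shown are of the called members with the smallest p in each direction with a matched start, from 30 bases before to 15 bases from the start, 5′ to 3′ in the sense of the gene, with the longest run of C and T within 15 bases of the start in capitals. The first 4 rose and the last 4 fell in the 4 libraries.
Rpl37: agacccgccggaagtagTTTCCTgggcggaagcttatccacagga
Rpl39: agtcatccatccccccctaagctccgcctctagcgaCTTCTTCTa
Rpl26: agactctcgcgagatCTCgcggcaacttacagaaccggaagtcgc
Rps15a: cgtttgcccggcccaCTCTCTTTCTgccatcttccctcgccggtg
Rpl23: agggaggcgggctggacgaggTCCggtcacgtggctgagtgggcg
Rps26: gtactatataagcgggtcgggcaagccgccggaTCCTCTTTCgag
Rplp2: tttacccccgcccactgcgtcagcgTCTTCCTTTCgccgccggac
Rpl41: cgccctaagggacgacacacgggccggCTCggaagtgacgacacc

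The windows lie at chr15:5116583-5116627 (+) for Rpl37, chrX:37085208-37085252 (-) for Rpl39, chr11:68901536-68901580 (+) for Rpl26, chr7:118116133-118116177 (-) for Rps15a, chr11:97782425-97782469 (-) for Rpl23, chr10:128626492-128626536 (-) for Rps26, chr7:141447621-141447665 (+) for Rplp2 and chr10:128549154-128549198 (-) for Rpl41. The run reached 10 bases in Rps15a and Rplp2, 9 in Rps26 and 8 in Rpl39. Runs of at least 8 stood in 27 of 63 members, 42.9%, against 13.9% of 27025 genes. They stood in 11 of 18 members that rose, 3 of 7 that fell and 13 of 36 that were not called. A start with C followed by 4 bases of C or T was found in 13 members, 20.6% against 3.01% of all genes. The letters CCGGAAG, on either strand of the 300 bases from 250 before to 50 after the start, were found in 26 members, 41.3% against 9.93% of all genes. These letters stood in 10 of 18 members that rose, 4 of 7 that fell and 12 of 36 that were not called. A start in the table may differ from that used in these cells. The windows of Rpl37 and Rpl26 end before the gene starts of GENCODE M21, chr15:5116645 and chr11:68901583. In Rps15a, Rpl23 and Rpl41 the marked run ends before the matched start itself. The marked runs of all these genes therefore need not lie in the mRNA.

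Genes of the same machinery outside the rule were read from the same fits. Of 24 translation factors and other mRNAs of which many have a TOP tract, 3 rose and 3 fell with 4 libraries (25.0% called against 17.4% of all genes), with a median log2 fold change of -0.05 against 0.16 for members. Tpt1, a classical TOP mRNA, fell from 90.6 and 87.6 to 57.7 and 55.8 CPM (log2 fold change -0.64 ± 0.07), and Pabpc1, the poly(A) binding protein, from 876 and 925 to 720.3 and 796 CPM. Eif3e and Vim rose. Of 34 other initiation factors 4 rose, Eif1a and Eif3m among them, and 3 fell, with Eif4g1 and Eif4g3 among them (20.6% called). Of 71 ribosome biogenesis genes 0 rose and 5 fell (7.04%, near the 7.39% of all genes that fell), and the 4 with the smallest p were Utp3, Nop10, Sbds and Rpf1.

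Of 77 mitochondrial ribosomal protein genes tested 1, Mrps14, rose and 1, Mrps9, fell, with a median of -0.07 (2.60% called). Of 28 subunits and factors of RNA polymerases I and III, Polr3k rose and none fell (3.57% called). Of 14 chaperones and importers of ribosomal proteins Tnpo1 rose, and Hspa8 and Nacc1 fell (21.4% called, near the 17.4% of all genes). Of 7 snoRNA host genes none was called, with Gas5 at -0.10 ± 0.05 and Snhg15 at 0.16 ± 0.13 on the log2 scale. Fau and Rack1, which encode ribosomal proteins under other names, were not called. Rack1 had 1619.9 to 1821 CPM and Fau 2.55 to 3.46 CPM. With 6 libraries 0 genes of any of these lists were called by edgeR. An unadjusted p under 0.05 was found for 6 of 71 ribosome biogenesis genes, 3 of 34 other initiation factors, 2 of 78 mitochondrial ribosomal protein genes, 1 of 24 translation factors and 1 of 7 snoRNA hosts, against 7.76% of all genes, and for none of the other lists.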

How the data were processed

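RNA of Treg was sequenced in 6 libraries, 3 per label. The submitters' processing notes name the build mm10 and the tools DESeq2, HTSeq (0.7.2) and TopHat2 (2.1.1). The annotation release, the strand setting, the read length and the handling of multiply mapped reads: not given in the sources used here. The deposited table holds raw counts per gene, whole numbers without normalization. Per the file headers, the authors' deposited comparison table gives a mean level (a signal, as normalized counts), log2 fold changes with standard errors, a score for each test, and the p-value of each gene before and after adjustment. A symbol was found for 32919 of 37991 rows.

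Groups came from the titles. The members and lists were chosen with earlier results of these data known. Members were read from fits over all genes with edgeR 4.0.16 in R 4.3.3 (quasi-likelihood test, robust, TMM, filterByExpr, Benjamini-Hochberg at 0.05), and SE was derived from fold change and F. CPM is the count scaled to the library total. Level per length divides by merged exons of GENCODE M21. DESeq2 1.42.0, limma-voom (limma 3.58.1), other scalings and filters, a replicate block, a 1.2-fold limit, added pseudogene counts and leaving out libraries were alternatives; adding all copies that share a 50-mer, and 100 bases in place of 50, were chosen after seeing the data. Single values were compared with exact permutation tests in scipy 1.17.1. Floors cover counting error only, while SE also includes the spread among libraries as estimated by the fit. Fits were tested on simulated data. Named members are all called ones, the 5 highest and 5 lowest per length, those without counts, paralogs, the 4 smallest p per fit, the 4 most and 4 least variable, and 1 by position; companion lists give up to 4 called genes by smallest p, or the 2 smallest p. Some of the genes taken by these rules are not reported here.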

Additional observations from a re-analysis of the deposited data

How the results depend on the processing

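With 6 libraries 0 members were called by edgeR as given and under the other scalings, limma-voom, the non-robust fit, a mean of at least 10 CPM, the fold limit, added pseudogene counts and the replicate block. DESeq2 gave 1, no filter gave 1, and leaving out both libraries in which Trim28 goes against the label gave 29; the cause was not tested. Leaving out 1 library gave 0 to 27, with 27 without sufficient replicate 3. For the alternatives in this section no share over all genes is given beside the counts of members. With 4 libraries the 29 called members became 14 under the 1.2-fold limit, which asks for more than a difference from 0, and 22 to 37 otherwise. The median log2 fold change of members, 0.16 with 4 libraries, was 0.10 with a mean of at least 10 CPM and 0.0927 with copies added. When 1 library was left out it ranged from 0.10, in the absence of sufficient replicate 1, to 0.23, in that of sufficient replicate 2. The difference in the share of counts, 0.0377 percentage points, reversed to -0.0125 without both libraries.

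Of 493 values of the called members under the alternatives with 4 libraries, 447 kept direction and call, 42 lost the call and 4 changed sign. Rpl14 turned to -0.0785 with pseudogene counts added and -0.0783 with copies, and Rpl19 to -0.122 and -0.118. The replicate numbers do not pair the libraries by any label: deviations of same-numbered libraries correlated at -0.358, -0.284 and -0.604 for numbers 1, 2 and 3. With the replicate block 0 members were called with 6 libraries and 31 with 4. Where a sole library was left in a group, it was assumed to vary like the other group. About 3 counts, 0.273 to 0.301 CPM, limit what Rpl6l and the members without counts can show.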
